A study of Mus musculus with 12 samples.

Results

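Short exons of 28 to 50 nt were followed through depletion and re-expression of the splicing factor Puf60 in N2A cells, a mouse neuroblastoma line. The exons were taken from the deposited vast-tools table, a catalogue of splicing events with read counts for each library. An exon was kept where it had at least 10 inclusion plus exclusion reads in each of the 12 libraries. Of 6945 exons of this length in the table, 3929 in 2696 genes met the rule, out of 98340 exons of all lengths and 222055 splicing events of any kind tested with the same minimum.

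The cells came as a pair of stable lines, each with a Flag-tagged Puf60 cDNA that resists the siRNA and is switched on by doxycycline. The cDNA holds Puf60 exon 5 in the pEx5 line and lacks it in the mEx5 line. In each line a control group received a non-targeting siRNA, a knockdown group a Puf60 siRNA, and an induced group the Puf60 siRNA together with doxycycline. The siRNA was used at 15 nM and doxycycline at 2 µg/ml for 24 h, and cells were harvested at 48 h. Each of the 6 groups held 2 libraries, A and B. The labels do not say whether A and B came from separate cultures, so p-values measure the spread between these libraries, which may be technical. A group with the non-targeting siRNA and doxycycline was not analysed here, so effects of doxycycline itself cannot be told apart from those of the cDNA. A free-text field of the doxycycline libraries names them uninduced, and the treatment field was followed instead.

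In the authors' deposited expression table, which gives 1 RPKM value (reads normalised to gene length and library size) per gene and group, Puf60 stood at 107.44 in control, 22.05 in knockdown and 246.09 in induced pEx5 cells. In mEx5 cells the values were 103.47, 25.16 and 202.07 RPKM. Reads of the cDNA are part of these values. Of 13 neuroblastoma markers 12 reached 1 RPKM in some group, with a summed level of 980.96 to 1269.43 RPKM, and of these 13 genes 1 was higher and 4 were lower in both lines on knockdown by the authors' FDR, as were 10.1 and 13.7% of all genes. The sums of 5 fibroblast, 5 glial and 5 immune or endothelial markers were 0.44 to 3.83, 4.88 to 6.64 and 1.1 to 1.76 RPKM. Higher in both lines on knockdown were 2 of 4 fibroblast markers with a fold change, Dcn and Pdgfra, 0 of 3 glial ones and 1 of 5 immune or endothelial ones, Cdh5. Pdgfra had 0.33, 0.49 and 0.24 RPKM in control, knockdown and induced pEx5 cells and 1.13, 3.17 and 1.24 RPKM in mEx5, and the part of such cells in the results was not tested. Of the glial markers Mog was listed at 0 in every group. A short exon had a median of 167 to 298 reads per library. Over 429 short exons with a mean inclusion between 10 and 90%, libraries A and B of a group differed by a median of 2.95 to 4.19 points.

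Puf60 is a U2AF-related protein that binds the polypyrimidine tract upstream of 3′ splice sites and helps to recruit the U2 particle. Short exons are difficult for the spliceosome, because the complexes on their flanking splice sites have little room to contact each other across the exon. Many are included mainly in neurons, where regulators such as Srrm4, Ptbp1, Rbfox proteins and Hu proteins act on them. Their short peptides often change a protein surface when their length keeps the reading frame, and change the frame downstream otherwise.

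The sequences of exons that carried the results below are printed 5′ to 3′ on the transcribed strand, with the last 3 bases, the exon side of the 5′ splice site, in capitals. They were read from the transcripts of GENCODE M21 (GRCm38), after the exon was matched by chromosome, strand, length and the lengths of both flanking introns. Of the 3929 short exons, 2579 found such a match. The first 8 are the coding exons among the 10 that lost most inclusion on knockdown, which show how short these units are. They are followed by Elavl2 and Ppfibp1, whose values after induction close the account, and by 3 coding exons that gained inclusion.
Agtpbp1 exon of 38 nt: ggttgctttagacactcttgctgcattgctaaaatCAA
6720463M24Rik exon of 46 nt: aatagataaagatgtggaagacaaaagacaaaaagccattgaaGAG
Slc9a8 exon of 35 nt: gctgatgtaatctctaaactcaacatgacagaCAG
Efha2 exon of 39 nt: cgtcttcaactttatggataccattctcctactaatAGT
Ptbp2 exon of 34 nt: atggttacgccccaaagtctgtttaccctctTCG
Prune2 exon of 48 nt: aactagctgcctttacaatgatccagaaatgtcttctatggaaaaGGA
Fam179a exon of 47 nt: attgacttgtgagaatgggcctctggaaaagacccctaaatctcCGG
Nt5c3l exon of 47 nt: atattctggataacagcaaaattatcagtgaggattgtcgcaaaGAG
Elavl2 exon of 39 nt: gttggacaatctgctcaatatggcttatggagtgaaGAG
Ppfibp1 exon of 33 nt: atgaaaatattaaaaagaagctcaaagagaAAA
Prpf40b exon of 28 nt: acggctccgggtgcggacaccgccaGCT
Cbs exon of 42 nt: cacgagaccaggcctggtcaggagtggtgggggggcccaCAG
Sirt2 exon of 47 nt: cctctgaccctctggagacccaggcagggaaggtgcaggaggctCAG

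The 8 most reduced coding exons had 32.61 to 50% G and C, against 65.96 to 75% in the 3 coding exons that gained inclusion. Over all matched exons the median was 46.7% in those lost, 63.2% in the 6 matched ones gained and 47.6% in all short exons. These figures describe the exons, and the set gained is small.

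Inclusion was expressed as percent spliced in (PSI), the share of an event's reads that include the exon. In control libraries most short exons were used nearly always. A mean control PSI of at least 95% was found for 2773 exons (70.58%), and a PSI under 5% for 580 (14.76%). The other 576 exons lay between these limits, 206 of them at 20 to 80% and 226 at 80 to 95%.

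Short exons called on Puf60 knockdown mostly lost inclusion, while the median change over all short exons was 0.0 points. In both lines together 199 exons were lower and 10 higher on knockdown, at a Benjamini-Hochberg adjusted p under 0.05 in limma, taken over all 222055 events, with PSI shifted by 10 points or more. The share lower was 5.06% of the short exons, against 1.98% of exons of all lengths and 0.975% of all events. The share higher was 0.255%, against 0.217% of exons of all lengths and 0.327% of all events. The lost exons lay in 189 genes and fell by a median of -18.8 points, from -10.1 to -53.2. Of them 87 fell by at least 20 points, 37 by at least 30 and 2 by at least 50. The authors' deposited table, which gives a True or False call without a stated criterion, called 193 of the 199 in pEx5, 190 in mEx5 and 184 in both. Among all short exons the authors' table called 469 in pEx5 and 434 in mEx5, and among all events 3.78 and 3.17%. The 199 were picked from the same libraries, so the authors' calls of them are no separate support. In a limma fit restricted to events with a mean PSI of 5 to 95%, 257 of 675 short exons were called in either direction, where 17.5% of 22770 events of all kinds were.

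**Figure D1:**
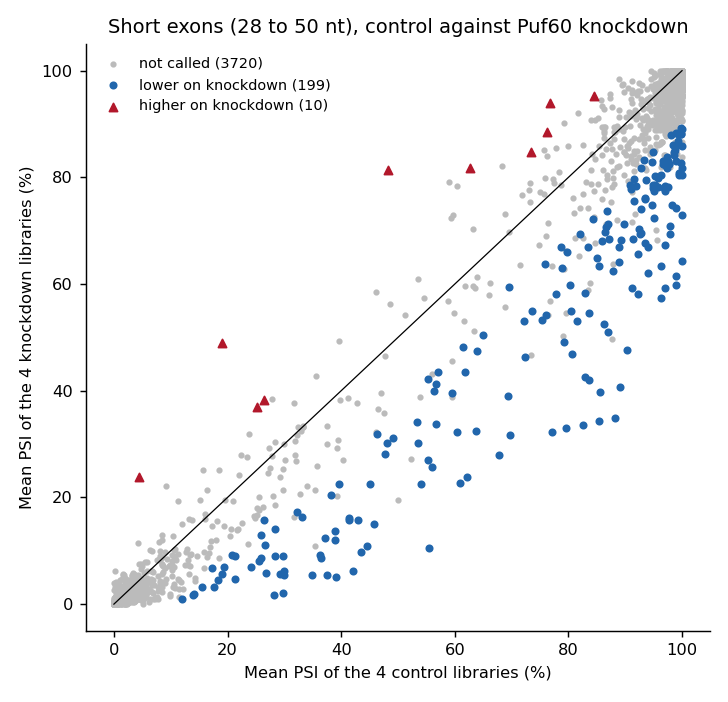
Mean PSI (%) of each of the 3929 short exons in the 4 control libraries (x axis) and the 4 knockdown libraries (y axis), with the line of equal inclusion. The 199 exons called lower (blue) lie below the line at control PSI from 11.98 to 100%, and the 10 called higher (red triangles) lie above it.

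How many exons were called depended on where they started. Of 206 exons at a control PSI of 20 to 80%, 79 were lower (38.35%) and 7 higher. Of 226 at 80 to 95%, 59 were lower (26.11%) and 1 higher. Among the 2773 nearly constant exons 52 were lower (1.88%), and among the 580 nearly silent ones none could fall by 10 points and 1 rose, in Maf1. For exons of all lengths the shares lower in these first 3 classes were 28.19, 17.76 and 0.74%. So 52 of the 199 lost exons were ones that control cells included at 95% or more.

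The lost share was highest in the exons shorter than 28 nt and lower in longer exons, with no fall beyond 299 nt. It was 11.88% of 345 exons of 3 to 15 nt, 11.53% of 529 exons of 16 to 27 nt, 5.06% of the short exons, 2.61% of 28955 exons of 51 to 99 nt and 1.41% of 52596 exons of 100 to 199 nt. At 200 to 299 nt it was 1.11% and at 300 nt or more 1.67%. Within the short exons it was 6.5% at 28 to 33 nt, 5.73% at 34 to 39, 5.5% at 40 to 45 and 3.63% at 46 to 50. Exons with a control PSI of 20 to 95%, where loss can be measured best, showed much the same order between the broad classes. There 48.53% of those of 3 to 15 nt were lower, 45.28% at 16 to 27 nt, 31.94% (138 of 432) at 28 to 50 nt, 25.67% at 51 to 99 nt, 17.18% at 100 to 199 nt, 15.05% at 200 to 299 nt and 16.21% at 300 nt or more. Within the short exons the shares were 35.53% at 28 to 33 nt, 38.61% at 34 to 39, 29.1% at 40 to 45 and 27.27% at 46 to 50. At the edges of the length rule, 14 of 109 exons of 27 nt were lower, none of 55 of 28 nt, 10 of 270 of 50 nt and 20 of 380 of 51 nt. Exon 5 of Puf60 itself, at 51 nt, falls just outside. The classes differ in other features too, exons are not replicates, and no test of the length trend was made.

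**Figure D2:**
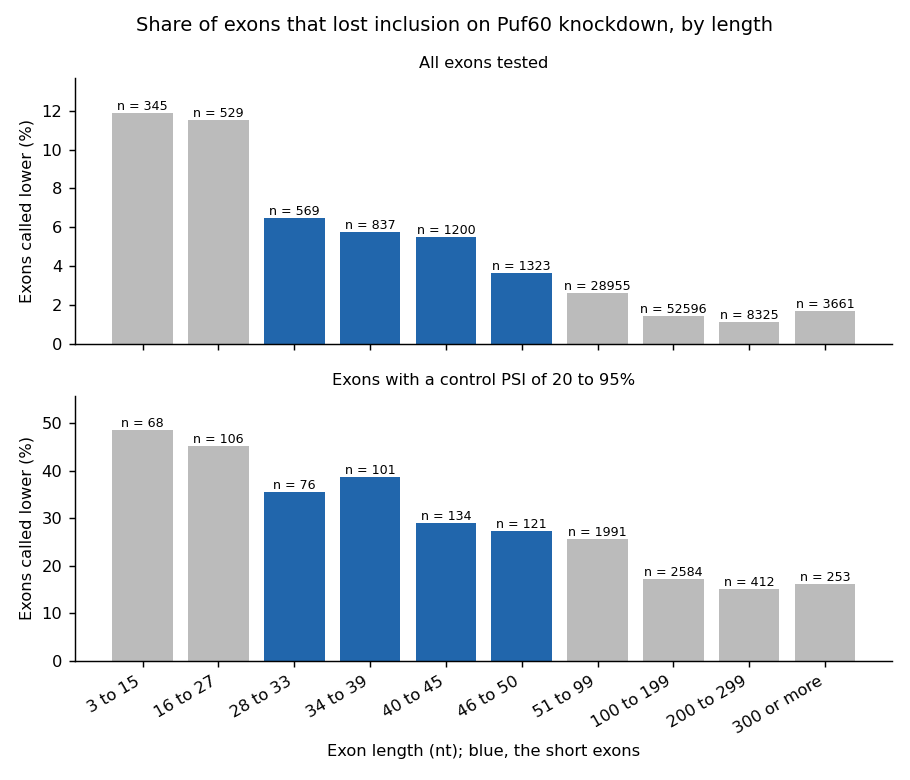
Share of exons called lower on knockdown in both lines (%, y axis) by exon length in nt (x axis), for all exons tested (upper panel) and those with a control PSI of 20 to 95% (lower panel). Bars of the short exons are blue, n is the number of exons, and the share goes from 11.88% at 3 to 15 nt to 1.41% at 100 to 199 nt in the upper panel.

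The deepest loss was in Agtpbp1, whose product is a carboxypeptidase that trims glutamate tails of tubulin. Its 38 nt coding exon (MmuEX0004326, GRCm38 chr13:59517653-59517690, minus strand) had a PSI of 84.6 and 86.3% in the pEx5 control libraries, 40.1 and 26.1% in knockdown and 81.1 and 79.9% after induction. In mEx5 the values were 90.7 and 91.1%, 43.6 and 30.1%, and 92.4 and 82.9%. Every control and induced library lay above every knockdown library. The mean change on knockdown was -53.2 points (limma, -3.75 ± 0.32 SE in log2 odds of inclusion, adjusted p = 0.00091). The knockdown values rest on 67 to 94 reads, which give exact 95% binomial intervals of 30.4 to 51% and 17.7 to 36.7% for the pEx5 pair. Such intervals cover counting error only.

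A 46 nt coding exon of 6720463M24Rik, named Bora in GENCODE M21 and encoding a cofactor of the mitotic kinase Aurora A (GRCm38 chr14:99053518-99053563, plus strand), behaved much like it. It went from 87.5 and 86.5% to 31.2 and 36.2% in pEx5 and from 81.4 and 86.1% to 37.12 and 33.01% in mEx5. After induction it stood at 79.7 and 79.5% in pEx5 and at 81.8 and 68.9% in mEx5. The change of -51 points passed the limma test (adjusted p = 0.00029), and knockdown libraries overlapped with no other.

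A 35 nt coding exon of Slc9a8, a sodium and proton exchanger gene (GRCm38 chr2:167446502-167446536, plus strand), fell by 49.0 points (limma adjusted p = 0.0063). Its control libraries had 83.8 and 72.7% in pEx5 and 84.3 and 89.8% in mEx5, and its knockdown libraries 24.7 and 44.2% and 23.7 and 41.8%. Some libraries had only 34 reads for this exon, and in pEx5 alone it did not pass (limma adjusted p = 0.061). Its call in mEx5 alone was lost without any mEx5 library or either induced pEx5 library. That call was also lost with the replicate letter as a block (limma adjusted p = 0.0511).

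Ptbp2, a neuronal relative of the polypyrimidine tract-binding protein, is itself a regulator of short exons. Its 34 nt coding exon (GRCm38 chr3:119724612-119724645, minus strand) went from 86.0 and 88.2% to 42.9 and 37.0% in pEx5 and from 83.5 and 84.6% to 45.7 and 33.5% in mEx5. After induction it had 82.5 and 78.5% in pEx5 and 70.0 and 71.5% in mEx5. The loss was -45.8 points (limma adjusted p = 0.00013), and both induced pairs lay between knockdown and control.

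A 47 nt coding exon of Nt5c3l (Nt5c3b in GENCODE M21), a gene of a nucleotidase that acts on 7-methylguanosine monophosphate, was read more than 500 times in every library. It had 94.2 and 91.2% in pEx5 controls and 51.5 and 48.7% in knockdown. In mEx5 it had 87.7 and 88.4% in control and 45.4 and 45.1% in knockdown. The change was -42.7 points (limma adjusted p = 2.8e-05), far above the distance of the library pairs. It lies at GRCm38 chr11:100440040-100440086 on the minus strand, next to an upstream intron of only 98 nt.

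Not all deep losses shifted the reading frame. A 39 nt coding exon of Efha2, named Micu3 in GENCODE M21 and coding for a regulator of the mitochondrial calcium uniporter (GRCm38 chr8:40359410-40359448, plus strand), fell from 89.97 and 84.76% to 41.8 and 42.8% in pEx5. In mEx5 it fell from 93.0 and 88.4% to 40.08 and 37.96% (limma adjusted p = 0.00011 over both lines). A 48 nt coding exon of Prune2 (GRCm38 chr19:17216326-17216373, plus strand) was alternative in control cells, at 45.8 and 56.3% in pEx5 and 60.4 and 59.3% in mEx5. Knockdown brought it to 9.79 and 8.15% and to 12.4 and 11.8% (limma adjusted p = 0.00019). Prune2 held 3 lost exons, of 48, 39 and 36 nt, and another 8 genes held 2 each. Exons of 1 gene share its transcripts and are not separate observations.

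The 10 deepest losses also held 2 exons in untranslated regions. A 48 nt exon of Ddit3, which encodes the stress-response transcription factor CHOP, had 83.3 and 84.0% in pEx5 controls and 37.1 and 39.5% in knockdown. In mEx5 it had 84.3 and 82.7% in control and 46.6 and 45.3% in knockdown. With 1141 to 3519 reads per library it had the smallest adjusted p of the named exons (limma, 8.5e-06). A 33 nt exon of Dedd, a gene of a death effector domain protein, fell from 75.3 and 78.2% to 28.5 and 29.3% in pEx5 and from 84.5 and 80.5% to 35.17 and 38.96% in mEx5 (limma adjusted p = 2.8e-05). The remaining exon, 47 nt in Fam179a (Togaram2 in GENCODE M21, a gene of a microtubule-binding TOG domain protein), fell by 44.8 points. Its libraries held 31 to 78 reads, and its adjusted p of 0.028 (limma) was the weakest of the 10. The call was lost without any of the 6 pEx5 libraries, mEx5 control B or mEx5 knockdown A (adjusted p from 0.051 to 0.083).

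**Figure D3:**
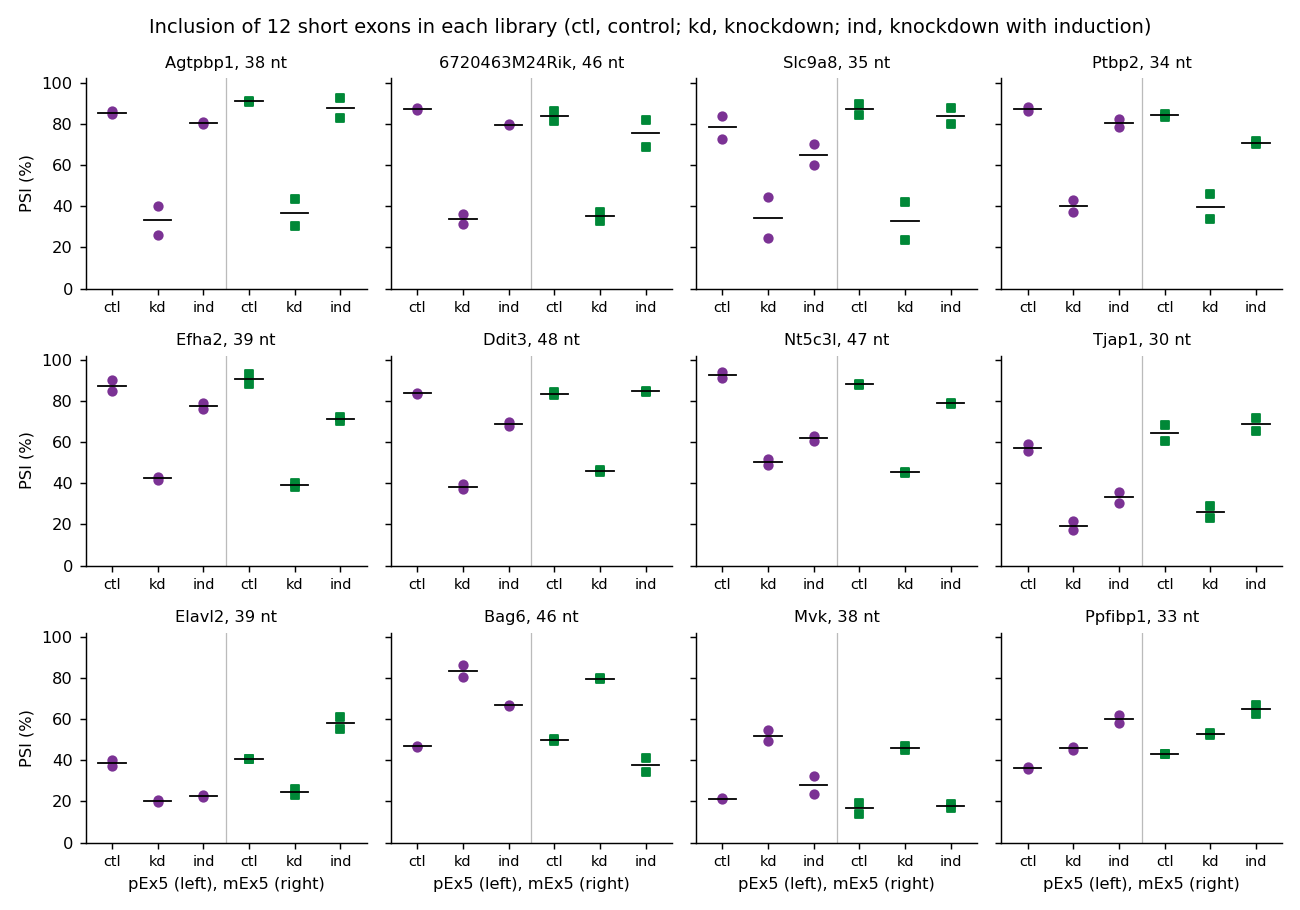
PSI (%, y axis) of 12 short exons in each of the 12 libraries; points are libraries, bars the mean of 2 libraries, purple circles pEx5 and green squares mEx5. Agtpbp1, 6720463M24Rik and Ptbp2 fell on knockdown and rose on induction in both lines, Bag6 and Mvk rose on knockdown, and Elavl2 after induction had 22.92 and 22% in pEx5 and 60.8 and 55.4% in mEx5.

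The 10 exons that gained inclusion were led by Bag6, a chaperone gene. Its 46 nt exon (MmuEX0007608) went from 47 and 46.55% to 86.2 and 80.3% in pEx5 and from 49.4 and 50.1% to 79.4 and 80.1% in mEx5 (33.2 points, limma adjusted p = 0.00025). A 38 nt untranslated exon of Mvk, which encodes mevalonate kinase, went from 21.5 and 21.3% to 49.4 and 54.6% and from 19.5 and 14.1% to 44.8 and 47.1% (limma adjusted p = 0.00069). A 46 nt untranslated exon of Maf1, a repressor of RNA polymerase III, was rare in control cells at 3.42, 3.2, 4.9 and 5.86%. It reached 21.7 and 21.5% in pEx5 knockdown and 23.7 and 28.2% in mEx5 knockdown (limma adjusted p = 0.0003). In these exons no knockdown library overlapped a control library.

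Among the other gains, a 43 nt untranslated exon of the cathepsin gene Ctsa rose by 19.1 points (limma adjusted p = 0.00041), and a 28 nt coding exon of the splicing factor gene Prpf40b by 17.1 points (limma adjusted p = 0.0057). Exons of Arhgef11 (50 nt), Cbs (42 nt), Sirt2 (47 nt), Gm14322 (37 nt) and Nagpa (48 nt) rose by 12.3, 11.9, 11.8, 11.4 and 10.6 points. Reads of Gm14322, a member of a gene family with close copies, may not be assigned with certainty. The calls of Gm14322, Sirt2 and Cbs were lost in limma without weights and trend. That of Cbs was also lost without any library other than the induced pEx5 pair (adjusted p from 0.0578 to 0.134). That of Gm14322 was lost without any control library or either knockdown library B, at an adjusted p of 0.0428 to 0.0925 or a change under 10 points, and that of Nagpa without pEx5 control B or mEx5 control A.

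Most exons called in a line were called in the other too. In pEx5 alone 135 short exons were lower and 8 higher, against 1.37 and 0.142% of exons of all lengths. In mEx5 alone 112 were lower and 6 higher, against 1.02 and 0.063%. The counts in pEx5 were 94 without control library A, and in mEx5 68 without control library B. Called in each line were 103 exons, which is 72% of the pEx5 and 87.3% of the mEx5 calls, and all 103 moved the same way. This overlap was not counted for exons of other lengths and is not shown to be particular to short exons. The lines share no library, but the fit took the spread of an event from all groups together. Calls in the lines are thus not separate tests. A difference of the knockdown effect between lines was called for 0 short exons and for 0.0% of all events by limma. The fit limited to a mean PSI of 5 to 95% also called 0 short exons. An unadjusted limma p under 0.05 was found for 282 short exons, a count not given here for all events. With 2 libraries a group, a count of 0 leaves differences of moderate size unseen.

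Lost exons lay between longer introns than short exons in general. Their median upstream intron was 2857 nt and their median downstream intron 2854 nt, while all short exons had 1837 and 1733 nt. The values were 1759 and 1966.5 nt in 286 exons at a control PSI of 20 to 95% that were not called. The 10 exons gained had medians of 719.5 and 538 nt. A length divisible by 3 was found for 115 of the 199 lost exons (57.8%), for 47.2% of the uncalled exons at a control PSI of 20 to 95%, for 38.4% of all short exons and for 2 of the 10 gained. The median length was 42 nt in lost and 43 nt in all short exons. Of 163 lost exons matched to GENCODE M21, 143 were coding, 8 untranslated, 6 partly coding and 6 in non-coding transcripts. The bases AG ended 58.9% of the matched lost exons, 47% of uncalled ones at a control PSI of 20 to 95% and 54.0% of all. A first base G, on the exon side of the 3′ splice site, was found in 34.4, 41.5 and 45.6%. These features are given as descriptions without a test.

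Genes that host lost exons were sorted by symbol into broad groups, and losses turned up in each of them. Of 155 short exons in vesicle trafficking and endocytosis genes, 11 were lower and 0 higher (7.1% called, against 5.32% of all short exons). Exoc7, an exocyst subunit gene, went from 41.51 and 34.02% to 4.5 and 4.35% in pEx5 and from 30.8 and 33.2% to 7.44 and 5.59% in mEx5 for its 39 nt exon (limma adjusted p = 0.00011). A 46 nt exon of Dennd1b, an activator of Rab GTPases, fell by 33.8 points on as few as 30 reads (limma adjusted p = 0.044), a call lost without any library other than the induced mEx5 pair (adjusted p from 0.0529 to 0.143). The others of this group lay in Dnm1l, Arfgap1, Sec31a, Ppfia1, Ap2b1, Tbc1d16, Erc2, Vps8 and Tbc1d23.

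Of 79 exons in cytoskeleton and motor genes 6 were lower and 0 higher (7.59%). A 47 nt exon of the formin gene Fmnl2 fell from 93.3 and 91.9% to 58.6 and 56.6% in pEx5 and from 91.5 and 92.1% to 58.0 and 59.1% in mEx5 (limma adjusted p = 1.9e-05). In Kif15, a kinesin gene, a 43 nt exon fell by 31.9 points (limma adjusted p = 0.0002). Of 35 exons in adhesion and axon guidance genes 3 were lower (8.57%), among them Fat1 (36 nt, a change of -30.7 points) and Cadm1 (33 nt, -17.2 points).

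In RNA processing genes 9 of 145 exons were lower and 1 higher (6.9%). Besides Ptbp2, a 40 nt coding exon of the splicing regulator gene Rbfox2 went from 89.6 and 88.3% to 64.4 and 63.9% in pEx5 and from 89.4 and 84.2% to 55.3 and 66.0% in mEx5 (limma adjusted p = 0.0017). The others lower were in Exosc1, Elavl2, Eif4g3, Srsf7, Ythdc1, Tia1 and Srrm1. Of 148 exons in chromatin and transcription genes 9 were lower (6.08%), led by Zfp94 (39 nt, -28.4 points) and the Mediator gene Med15 (30 nt, -17.6 points). The Med15 call was lost without any of the 4 control libraries (adjusted p from 0.0527 to 0.0733). The ubiquitin system had 9 lower of 101 (8.91%), led by March7 (49 nt, -24.6 points) and Birc2 (49 nt, -22.2 points). Membership went by symbol alone, and Mdm1, for example, is not a ubiquitin ligase. The call of Birc2 was lost without either mEx5 control library or mEx5 knockdown A (adjusted p from 0.0539 to 0.0705). The list of cilium and centrosome genes had 3 lower of 85 (3.53%). Of these, 2 lay in Ttc3, which encodes a ubiquitin ligase, and the other in Ccdc76 (47 nt). As the list went by symbol, none of the 3 is shown to lie in a cilium or centrosome gene. The median change of the exons in these lists was between -0.28 and 0.0 points, as most of their members are constant exons, against 0.0 over all short exons. No list was tested as a set.

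Transcript levels of host genes were taken from the authors' deposited table, as log2 fold changes of knockdown over control. A host was counted as lower or higher where the authors' FDR was under 0.05 in both lines with the same sign, which held for 13.7 and 10.1% of all 18600 genes. Hosts of lost exons were lower for 88 of 198 exons (44.4%) and higher for 11, against 31.8 and 10.8% over all short exons and 24.6 and 15.1% over uncalled exons at a control PSI of 20 to 95%. Lost coding exons whose length is not a multiple of 3 had a lower host in 28 of 49 cases (57.1%), with a median log2 fold change of -0.34 in pEx5 and -0.29 in mEx5. Those with a length divisible by 3 had a lower host in 36 of 94 cases (38.3%), with medians of -0.14 and -0.12. The former also started higher, at a median control PSI of 91.1 against 62.9%, and fell by a median of -21.0 against -17.4 points. The part of these differences was not tested.

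**Figure D4:**
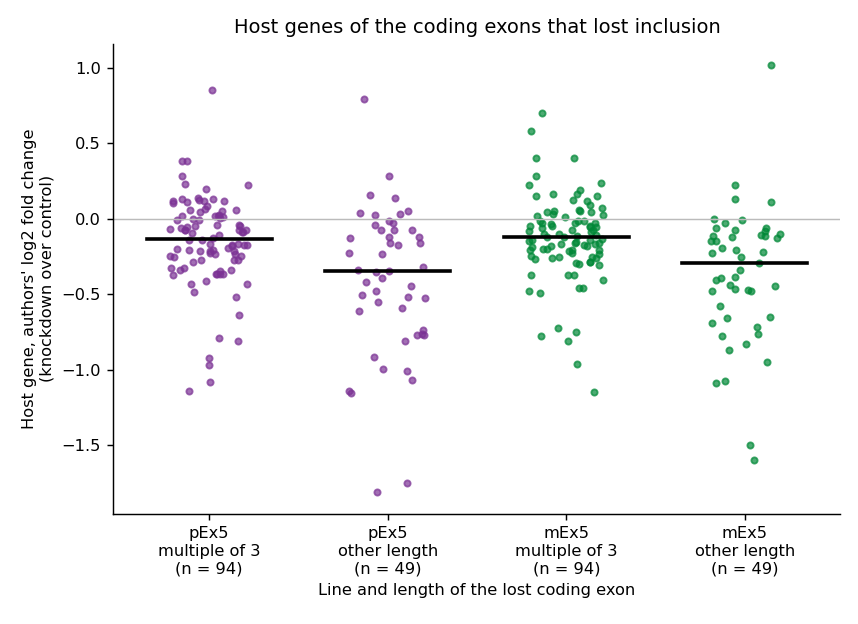
Log2 fold change (knockdown over control, y axis) of the host gene in the authors' deposited table for each lost coding exon, by line and by whether the exon length is a multiple of 3 (x axis); points are exons, jittered sideways, and bars medians. The medians are -0.14 and -0.34 in pEx5 and -0.12 and -0.29 in mEx5, and the groups overlap widely.

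Of the 6 deepest losses of coding exons that change the frame, 5 had a host that was lower in both lines in the authors' deposited table, and Fam179a, with -0.02 and -0.19, did not. Ptbp2 had a log2 fold change of -1.81 in pEx5 and -1.60 in mEx5, and Agtpbp1 -1.75 and -1.50. Nt5c3l had -1.14 and -1.08, Slc9a8 -0.99 and -0.95, and 6720463M24Rik -0.92 and -0.78. On induction over knockdown the authors' table gave 1.37 and 1.26 for Agtpbp1 and 1.02 and 1.00 for Ptbp2. These were the hosts with the largest falls among the 5, and induction values of the others are not given here. On knockdown Efha2, whose lost exon keeps the frame, had -0.09 and -0.12. Frame and level did not always go together: Fmnl2, with a lost exon of 47 nt, had 0.05 and -0.03, and Ddit3, whose lost exon is untranslated, had 0.88 and 1.22.

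Some regulators that act on short exons were also called in the authors' deposited table. Of 21 with a fold change 2 were higher and 10 lower in both lines and 9 were not called in both, while 10.1% of all genes were higher and 13.7% lower. Of 27 factors of 3′ splice site recognition, Puf60 among them, 6 were higher and 8 lower. Beyond a log2 fold change of 0.5 in both lines were Ptbp2, Elavl2 (-1.08 and -0.96) and Elavl4 (-0.59 and -0.71), all of them neuronal RNA-binding proteins. Among the 3′ splice site factors Puf60 (-2.35 and -2.06) and the helicase gene Ddx46 (0.79 and 0.87) were beyond it. Whether these changes contribute to the losses of short exons was not tested.

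By group means, most lost exons moved back towards control after induction in both lines. Against knockdown, 60 short exons were higher and 3 lower in pEx5, where 0.464 and 0.0437% of exons of all lengths were called. In mEx5 71 were higher and 7 lower, against 0.601 and 0.0834%. The largest gains in both lines included Agtpbp1, by 47.4 points in pEx5 and 50.8 in mEx5. Its adjusted p in limma was 0.038 in pEx5, and 0.0534 to 0.109 without any library other than pEx5 knockdown A and the induced mEx5 pair, and 0.0685 without weights and trend. In mEx5 it was 0.025, and 0.0505 to 0.0627 without any control library, induced pEx5 library or mEx5 knockdown B. In pEx5 they were followed by 6720463M24Rik (45.9 points) and Ptbp2 (40.5 points). In mEx5 they included an untranslated 36 nt exon of Rc3h2, a gene of a Roquin family RNA-binding protein (49.9 points, on as few as 22 reads, a call lost without any library other than the induced pEx5 pair, at an adjusted p of 0.0563 to 0.189, and with the replicate block, at 0.0855), and a 30 nt exon of Tjap1 (42.3 points). Among the exons called lower, the largest falls were in exons that knockdown had raised: Bag6 (-42.0 points), Mvk (-28.2) and Ctsa (-21.1) in mEx5, and Ctsa (-15.3) and Maf1 (-15.0) in pEx5. In pEx5 Mvk and Bag6 had larger differences of -24.0 and -16.5 points that just missed the threshold (limma adjusted p = 0.0502 for both). A 35 nt exon of the calcium-binding protein gene Cib1 fell by 12.5 points in pEx5 (limma adjusted p = 0.042), though knockdown had not moved it beyond the threshold, and this call was lost without any library other than the induced mEx5 pair (adjusted p from 0.0736 to 0.15). Without weights and trend none of the 3 falls in pEx5 passed, with limma adjusted p of 0.158 for Ctsa, 0.085 for Maf1 and 0.355 for Cib1, nor did that of Ctsa in mEx5 (0.0554). With the replicate block Maf1 (0.055) and Cib1 (0.0793) in pEx5 did not pass. The call of Maf1 in pEx5 was lost without any control library, induced pEx5 library or pEx5 knockdown A (adjusted p from 0.0514 to 0.0846). Lost as well were the calls of Ctsa in pEx5 without either induced pEx5 library (adjusted p of 0.0532 and 0.0602), of Mvk without either induced mEx5 library or mEx5 knockdown B (0.0583 to 0.0851) and of 6720463M24Rik without pEx5 induced B (0.0501). These comparisons and those of knockdown with control share the knockdown libraries, and the exons were chosen for a loss in them, so that part of any return is built in.

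The 199 lost exons had a median PSI of 84.5% in control, 56.6% in knockdown and 77.8% in induced pEx5 cells. In mEx5 the medians were 84.0, 58.5 and 77.5%. The share of the loss regained had a median of 73.4% in pEx5 (quartiles 50.5 and 91.1%) and 81.4% in mEx5 (61.7 and 97.0%). By the test, 58 of the 199 were higher than in knockdown in pEx5 and 68 in mEx5. At least 80% was regained by 77 exons in pEx5 and 105 in mEx5, and under 20% by 12 and 2. After induction 57 exons stayed at least 10 points below control in pEx5 and 34 in mEx5. The mEx5 line had the higher PSI in 131 of the 199 exons after induction, with a median difference of 2.4 points. It was also higher for 115 in control and 114 in knockdown, with medians of 0.7 and 1.0 points. These counts were not made for lost exons of other lengths. Neither the return nor the difference between lines is thus shown to be particular to short exons.

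**Figure D5:**
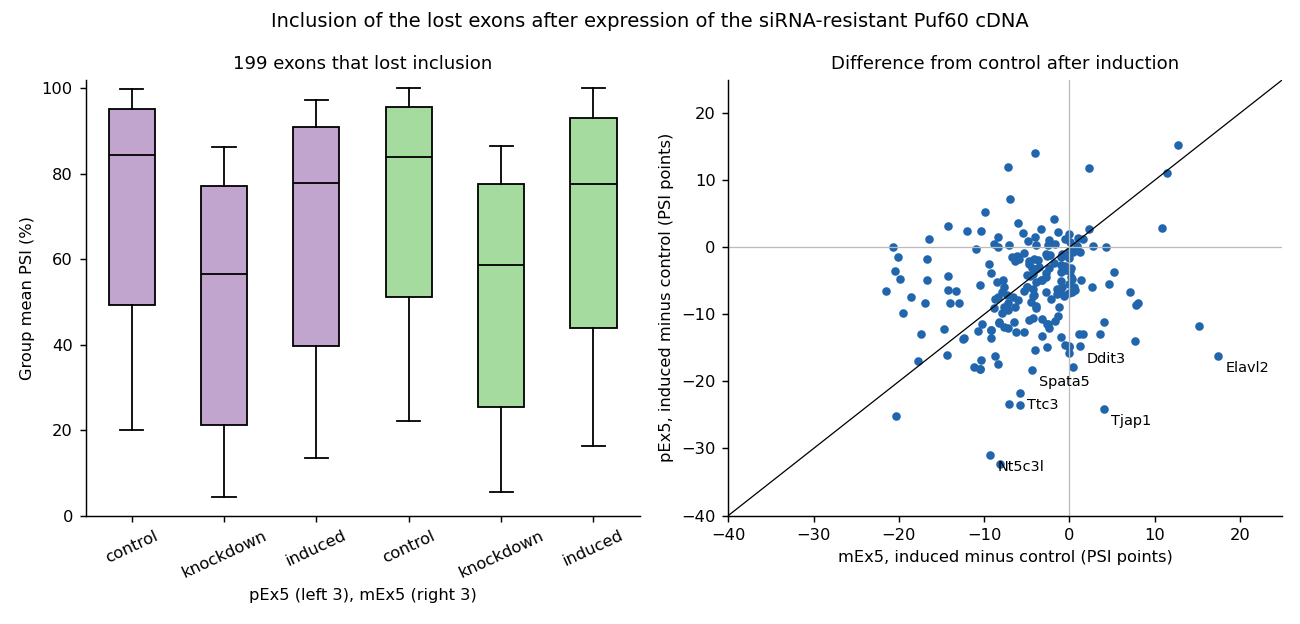
Left, group mean PSI (%) of the 199 lost exons by group; boxes show quartiles and medians, whiskers the 5th and 95th percentiles. Right, induced minus control in PSI points for each exon, mEx5 on the x axis and pEx5 on the y axis, with the line of equality; Nt5c3l, Ttc3 and Tjap1 lie far below it, and Elavl2 lies below control in pEx5 and above it in mEx5.

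Against control, 10 short exons were lower in induced pEx5 cells and 1 was higher, where 0.115 and 0.0153% of exons of all lengths were called. In induced mEx5 cells 0 were lower and 1 higher, against 0.0203 and 0.00305%. Against control, an unadjusted limma p under 0.05 was found for 882 short exons in induced pEx5 and 495 in induced mEx5 cells. These counts are not given here for all events and are not shown to be particular to short exons. Of the 10, Nt5c3l had the largest remaining loss, with 63.1 and 60.4% after induction in pEx5 against 94.2 and 91.2% in control (limma adjusted p = 0.0037). In mEx5 the same exon returned to 78.9 and 78.7% from 45.4 and 45.1%. A 43 nt exon of Ttc3 showed no return in pEx5, at 52.3 and 47.7% after induction, 55.0 and 52.2% in knockdown and 73.6 and 69.9% in control. In mEx5 it went from 53.0 and 52.4% to 65.6 and 68.2%. The pEx5 call of Ttc3 (limma adjusted p = 0.024) was lost without pEx5 control A, either mEx5 control or any knockdown library (adjusted p from 0.0517 to 0.0583), and without weights and trend (0.15). A 37 nt exon of Spata5, an ATPase gene, stood at 18.2 and 14.9% in induced and 35.4 and 34.2% in control pEx5 cells (limma adjusted p = 0.0497), a call that was lost when any of the 12 libraries was left out (adjusted p from 0.0541 to 0.11), without weights and trend (0.184), with at least 20 reads in each library (0.0501) and with the replicate block (0.101).

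The other 7 are named here after their values were seen. They lay in Elavl2, Ddit3, Ap2b1, Dync1li2, Arrb2, D4Ertd22e and Polb. Ddit3 had 67.9 and 69.8% in induced and 83.3 and 84.0% in control pEx5 cells, while in mEx5 induced and control libraries all lay between 82.7 and 85.0%. The 42 nt exon of Ap2b1, a subunit gene of the AP-2 endocytic adaptor, had 8.03 and 7.81% in induced and 18.98 and 23.53% in control pEx5 cells. In mEx5 its induced libraries, at 21.5 and 19.2%, overlapped with control at 20.3 and 22.2%. The 50 nt exon of Polb, which encodes DNA polymerase beta, had 87.4 and 84.3% in induced and 96.4 and 96.3% in control pEx5 cells. In mEx5 its induced libraries, at 92.5 and 91.4%, also lay below control, at 95.3 and 97.0%, and were not called.

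A 39 nt coding exon of Elavl2, a Hu family gene (GRCm38 chr4:91254141-91254179, minus strand), had unlike values after induction in the 2 lines. Knockdown lowered it from 37.1 and 40.1% to 20.9 and 20.0% in pEx5 and from 40.9 and 40.4% to 26.1 and 22.9% in mEx5. Induction left it at 22.92 and 22% in pEx5 and brought it to 60.8 and 55.4% in mEx5, above both control libraries. The 11 other lost exons that regained under 20% in pEx5 included Camk2a (33 nt) and Dcp1b (41 nt), the former on as few as 15 reads. For Elavl2 the difference of the induction effects was -31.6 points, with an adjusted p of 0.11 in limma over all events. A difference of induction effects was called by limma for 0 short exons and 0.00135% of all events. At an unadjusted limma p under 0.05 were 390 short exons, a count not given here for all events. Limma restricted to events with a mean PSI of 5 to 95% called 5 short exons, where 0.272% of its events were called.

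A 33 nt coding exon of Ppfibp1, a liprin gene (GRCm38 chr6:146999662-146999694, plus strand), was the only short exon called above control after induction in either line. It went from 36.6 and 35.6% in control through 46.4 and 45.1% in knockdown to 61.9 and 57.9% in induced pEx5 cells (limma adjusted p = 0.011 for induced against control). In mEx5 it went from 42.98 and 42.99% through 52.5 and 53.4% to 66.95 and 62.46% (limma adjusted p = 0.044). In neither line did this exon return towards control after induction. Without weights and trend both calls were lost (limma adjusted p = 0.129 in pEx5 and 0.21 in mEx5). The mEx5 call was also lost with a pseudocount of 1 read, with the replicate block and on leaving out any of the 6 pEx5 libraries or either mEx5 knockdown library (adjusted p from 0.0874 to 0.109).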

How the data were processed

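Polyadenylated RNA of 12 libraries was measured. The deposited vast-tools table gave, per the file headers, PSI as a percent for each event and library, and in its quality text the corrected inclusion and exclusion reads; 99.87% of the PSI values of short exons lay within 0.02 points of the share these reads give. A second deposited table held the authors' group PSI as a score, which can pass full inclusion slightly, and True or False calls. The deposited expression table held 1 RPKM value per gene and group, the authors' log2 fold changes and the authors' p-values with FDR. The submitters' processing notes name Salmon 0.14.1, edgeR and the build mm10. The assembly of the splicing coordinates is not given in the sources used here, so positions are those of the exon matched in GENCODE M21.

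Events with at least 10 reads in each library were tested in R 4.3.3 with limma 3.58.1. Its input was the log2 odds of inclusion after adding 0.5 reads to both sides (pseudocount). The fit used precision weights (variance floor 0.01), 1 coefficient per group and a variance trend on the absolute mean of these log2 odds. Reference sites of alternative splice site events (37194) were left out. Calls needed a difference of at least 10 points and a p under 0.05 after Benjamini-Hochberg adjustment over 222055 events. Alternatives were an unweighted fit, events with a mean PSI of 5 to 95% without trend, exon events only, a pseudocount of 1, 20 reads, 15 points, a replicate block and leaving out each library.

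In simulated data for knockdown in both lines over 222055 events, with 2000 alternative events changed, the test recovered 2, 22, 68 and 254 of 500 events at 10, 15, 20 and 30 points, with 0 of 220055 unchanged events called. For knockdown in pEx5 it recovered 0, 2, 10 and 85 of 500, and for induction against knockdown in mEx5 0, 0, 0 and 6. With 200 events changed, it recovered 0, 0, 1 and 6 of 50 for knockdown in both lines. Many of the events changed in this way were thus missed, and an exon that was not called is not shown to be unchanged. Of the measured short exons past 10 points, 209 of 282 were called for knockdown in both lines and 143 of 295 for knockdown in pEx5. For induction against knockdown in mEx5, 78 of 275 were called. Whether measured short exons are recovered at the rates above was not tested. In the simulated data with 2000 events changed, the test limited to a mean PSI of 5 to 95% recovered 117, 262, 354 and 483 of 500 for knockdown in both lines. Of 20861 unchanged events it called 9.

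Named exons were the 10 largest losses and gains on knockdown in both lines, the 3 largest called in each other comparison and direction, and the 2 largest called in each host list; named factors had an authors' log2 fold change of at least 0.5 in both lines. The exons, lists and tests were chosen with earlier results of these data known. Host lists were made from gene symbols, and 1 of them is not reported here. Hosts were found in the expression table for 3888 of 3929 exons.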

Additional observations from a re-analysis of the deposited data

Results flagged for a closer look

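For 5 short exons the effect of induction over knockdown differed between the lines in limma restricted to events with a mean PSI of 5 to 95%, where 0.272% of 22770 events were called for this difference. Limma over all events called none of them, with adjusted p from 0.084 to 0.29. In each of the 5 the difference, pEx5 minus mEx5, was negative. The directions of all 62 events called in the restricted fit are not given here, so this sign is not shown to be particular to short exons. The difference was -31.6 points for the 39 nt exon of Elavl2 (adjusted p = 0.004 in the restricted limma fit), described above, and -21.9 points for the 47 nt exon of Nt5c3l.

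A 48 nt coding exon of Nipa1, a magnesium transporter gene, had a difference of -21.0 points (adjusted p = 0.044 in the restricted limma fit). The pEx5 values were 95.6 and 96.3% for control libraries, 91.6 and 88.8% for knockdown and 75.6 and 83.7% after induction. In mEx5 it had 95.3 and 97.5%, 85.6 and 90.8%, and 98.6 and 98.6%. A 45 nt exon of D4Wsu53e, named Rsrp1 in GENCODE M21, where it lies in a non-coding transcript, had a difference of -14.0 points (adjusted p = 0.007 in the restricted limma fit). It stood at 2.52 and 2.58% after induction in pEx5, against 2.43 and 2.26% in knockdown, and at 19.04 and 15.94% in mEx5, against 3.18 and 3.43%. A 42 nt coding exon of Dync1li2, a dynein light intermediate chain gene, had a difference of -11.3 points (adjusted p = 0.027 in the restricted limma fit), with 85.1 and 83.1% after induction in pEx5 against 94.2 and 93.4% in knockdown. In mEx5 its induced libraries (93.6 and 91.2%) overlapped with knockdown (91.2 and 90.4%).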

How the results depend on the processing

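Knockdown in both lines kept its count within 1.5 times of 209 under every alternative, from 146 at 15 points to 257 with a mean PSI of 5 to 95% (17.5% of those 22770 events called), and 157 to 197 with a library left out. With a mean PSI of 5 to 95% the counts of calls were 231 for knockdown in pEx5 and 224 in mEx5, 132 and 169 for induction against knockdown, 48 and 23 for induction against control and 5 for the difference of induction effects. Without weights and trend, induction against knockdown in pEx5 had 30 calls, all of them higher, and induction against control 4 in pEx5 and 0 in mEx5. With 15 points induction against control in pEx5 had 5 calls, with a pseudocount of 1 read 0 in mEx5, and with exon events only the difference of induction effects had 2. Letters A and B did not pair the libraries (correlations of -0.024 to 0.024 between groups), and with the replicate block knockdown in both lines had 194 calls and induction against control in mEx5 0.

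With a library left out, with its partner taken to be as variable as the rest, calls ranged from 94 (pEx5 control A) to 136 for knockdown in pEx5 and from 68 (mEx5 control B) to 112 in mEx5. For induction against knockdown they ranged from 40 (pEx5 induced A) to 60 in pEx5 and from 50 (mEx5 induced A) to 68 in mEx5. For induction against control they were 7 (pEx5 knockdown A or B) to 13 in pEx5 and 0 to 3 in mEx5, and 0 to 4 (mEx5 knockdown A) for the difference of induction effects. No named exon changed direction. Depth limits the exons with few reads, and 21 of the 199 lost exons had under 50 reads in some library.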
